A study of Mus musculus with 8 samples.

Results

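Sparc, Dcn, Lum, Postn, Loxl1, Pdgfra, Pdgfrb, Fap, Thy1 and Tbx15 are 10 genes used to mark cancer-associated fibroblasts, and the acetylation of histone H3 at lysine 27 (H3K27ac) around them was described in 4 mouse breast tumors. They are 10 of 21938 annotated protein-coding genes. They were chosen by name with the H3K27ac peaks of these same tumors already known, so the peak coverage of their windows is a description and was not tested. The window of a gene was its body plus 50 kb on either side, in mm10 coordinates with GENCODE release M21 annotation. In the tumors without the TSLP transgene, more of these windows lay in peaks, with the widest gaps at Tbx15 and Sparc. Decorin (Dcn) had peaks in control tumors alone, and lumican (Lum) had none in any tumor.

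Fibroblasts of a tumor, like those of a wound, lay down collagen and the proteins that organize and cross-link it, and they respond to platelet-derived growth factor through 2 receptor tyrosine kinases. H3K27ac is deposited at promoters and enhancers in use and is removed when they fall silent, so a peak marks a stretch of DNA that was active in enough of the cells in the sample. A whole tumor mixes chromatin of carcinoma cells and of other cells, in shares that were not measured here. A gene used by a minority of cells gives a weak signal that may or may not pass a peak caller.

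All 4 tumors came from Balb/c mice that carried PyMT, the polyoma middle T oncogene driven in mammary epithelium by the MMTV promoter, and that lacked Rag1 (Rag1KO) and with it their own T and B cells. Every mouse had been injected with wild-type CD4+ T cells. Control 1 and control 2 carried no further transgene (PyMT;Rag1KO). Test 1 and test 2 also carried K14-TSLPtg, thymic stromal lymphopoietin under the keratin 14 promoter of basal epithelial cells. T cells were transferred at 4 weeks of age, and mice of the study were collected by tumor size or signs of illness. The age of each of these 4 mice at collection was not used here. In the sample titles a control is called tumor and a test sample cyst. Any difference in tissue behind these titles goes with the genotype and cannot be told apart from it. Each sample was 1 piece of 1 tumor. With 2 tumors per group an exact permutation test has 3 splits and a smallest p-value of 0.333, so that test could not reach 0.05 and none was run.

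The lists held 69861 peaks in control 1 and 67850 in control 2, against 65763 in test 1 and 59762 in test 2, which covered between 2.36% and 2.68% of the genome. The read depth behind the lists is unknown, and the lists give the position and width of a peak but not its height. Test 2 had the fewest peaks and the least covered genome. Keratin, claudin and other luminal epithelial genes had the highest acetylation of all 12 comparison lists, with 47.7% to 54.0% of their gene bodies in peaks on average, and neuronal genes had at most 0.750%. The name fibroblast is that of the genes and not of sorted cells, and of the 10 genes Lum and Thy1 had no covered base in the gene body in any tumor.

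The first comparison asked how much of the fibroblast gene windows lay in peaks. The 10 windows joined to 9 stretches, since those of the neighbouring genes Dcn and Lum overlap, and spanned 1355201 bp. Peaks covered 83.5 kb of them in control 1 and 78.3 kb in control 2, against 69.8 kb in test 1 and 48.3 kb in test 2. Both test tumors were therefore below both control tumors, and test 2 was farther below than test 1. The means were 80.9 ± 3.62 kb in control tumors and 59.1 ± 15.2 kb in test tumors (SD, n = 2 each), a test over control ratio of 0.730. Over the 4 test and control pairs this ratio ran from 0.579 to 0.891. Covered bases of the whole genome had a ratio of 0.974, with pairings from 0.880 to 1.08. Fewer fibroblasts in a tumor, less acetylation per fibroblast and acetylation of these genes in carcinoma or other cells cannot be told apart in such whole-tumor lists. The paper reports epithelial-mesenchymal transition as the pathway with the most differential H3K27ac between these groups. It attributes this to epigenetic reprogramming of the tumor cells, which was not tested here.

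The number of peaks in the windows was 80 in control 1 and 70 in control 2, against 70 in test 1 and 50 in test 2, a ratio of 0.8 beside 0.912 for all peaks of the genome. Here control 2 and test 1 were level, and test 2 alone stood below both controls. Relative to a tumor's own covered share of the genome, the windows were enriched 2.30-fold in control 1 and 2.32-fold in control 2, against 1.92-fold in test 1 and 1.51-fold in test 2. This ratio does not show whether weak peaks of test 2 fell below the caller's threshold. Without test 2 the ratio of covered bases was 0.863, and without test 1 it was 0.597. Tbx15 and Sparc carried most of the difference. The ratio was 0.834 without Tbx15, 0.750 without Sparc and 0.916 without both, in which case control 2 (36.0 kb) lay below test 1 (39.4 kb).

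Of the 9 genes with any coverage, Sparc, Dcn, Pdgfrb and Tbx15 (4 genes) had less window coverage in both test tumors than in either control tumor, against 13.0% of 18693 covered genes of the genome. Fap (1 gene) had more in both test tumors, against 17.3% of all genes. Pdgfra, Thy1, Postn and Loxl1 overlapped between the groups. Test 2 was the lowest tumor at 4 of the 9 genes, control 2 at 3 (Fap, Thy1 and Postn) and test 1 at 1 (Loxl1), and at Dcn both test tumors were at 0. The order of tumors was thus not shared by all of the genes. The median difference in window coverage, test minus control, was -0.588 percentage points over the 9 genes and 0.0192 over all genes.

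**Figure D1:**
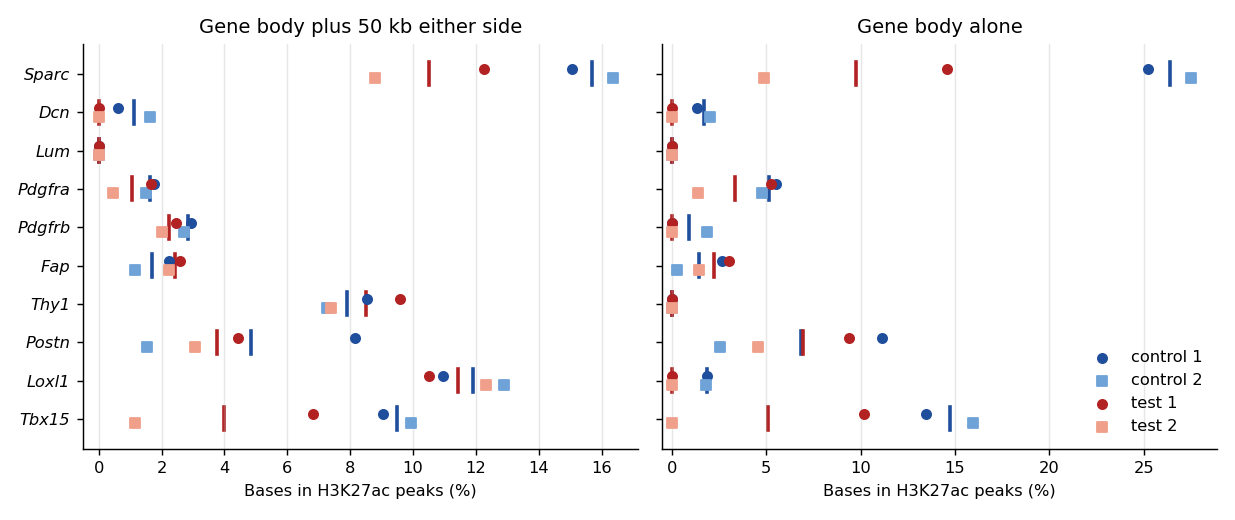
Percent of bases in H3K27ac peaks for each fibroblast gene (x axis) in the gene body plus 50 kb either side (left) and in the gene body alone (right). Each point is 1 tumor and vertical bars are group means (n = 2). Sparc and Tbx15 separate the groups most in both panels, Lum sits at 0 and Thy1 has coverage only outside its gene body.

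A window of this size also holds other genes, so peaks were divided by the nearest transcription start site (TSS). Peaks nearest to the start of a fibroblast gene covered 44.7 kb in control 1 and 39.1 kb in control 2, against 28.7 kb in test 1 and 8.77 kb in test 2. These are the genes' own peaks as far as distance can tell, and test 2 had less than any other tumor. Peaks in the same windows nearest to another gene covered 38.7, 39.2, 41.2 and 39.5 kb in the same order. The test over control ratio was 0.446 for the first kind (pairings 0.196 to 0.732) and 1.04 for the second (pairings 1.01 to 1.06). The lower coverage in test tumors was therefore found in peaks nearest to the fibroblast genes. Summed over all neighbouring genes, the other peaks covered slightly more in both test tumors than in either control tumor, which does not hold for each neighbour taken alone. These other peaks include some inside the body of Fap that were nearest to Gcg. Among them, the region chr2:62527877-62528781 was covered over 203 bp in control 2 and 614 bp in test 2. The order of control 2 and test 2 in this sum therefore rests on how peaks inside Fap are assigned. By own peaks, Sparc, Dcn, Loxl1 and Tbx15 (4 of 8 genes with any) were lower in both test tumors against 13.8% of 15499 genes, and 0 were higher against 17.2%. In the gene body alone the same 4 genes were lower (of 8, against 13.4% of 14552 genes) and 0 were higher (against 18.0%).

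Joining overlapping peaks of the 4 tumors gave 93 regions in the windows and 91238 in the genome. In the windows 71 regions had a peak in control 1 and 60 in control 2, against 51 in test 1 and 42 in test 2, or 76.3%, 64.5%, 54.8% and 45.2%. Over the genome these shares were 67.4%, 64.0%, 63.5% and 57.0%. Thus control 1 held a larger share of the window regions than of all regions, control 2 about the same share, and both test tumors a smaller one. Regions present in both control tumors and absent from both test tumors (control-only) numbered 10, or 10.8% beside 3.41% of the genome's regions. The reverse (test-only) numbered 2, or 2.15% beside 1.47%. A further 9 regions were missing from test 2 alone (9.68% beside 6.38%), and 16 were present in control 1 alone (17.2% beside 10.2%). The control-only number was 0 of 35 regions among peaks at least 1 kb wide (beside 2.47% of the genome's) and 5 where a peak had to cover 50% of a region (5.38% beside 3.94%). It was 18 without control 1 (19.4% beside 12.6%), 26 without control 2 (28% beside 13.6%), 19 without test 1 (20.4% beside 9.79%) and 10 without test 2 (10.8% beside 5.03%), since fewer tumors then had to share a state.

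The 30 regions present in all 4 tumors covered 50.3 kb in control 1 and 45.7 kb in control 2, against 49.4 kb in test 1 and 45.7 kb in test 2, a ratio of 0.991 beside 0.998 for the 34804 such regions of the genome. Regions were kept here for having a peak in every tumor, so a ratio near 1 was partly set by that choice. At single genes such regions could still be narrower in test 2, as at Pdgfra, where they covered 2547 bp (control 1), 1939 bp (control 2), 2051 bp (test 1) and 650 bp (test 2). Control-only regions lay in the windows of Sparc, Dcn, Loxl1 and Tbx15 (4 of 9 genes with coverage, beside 22.3% of all genes). Test-only regions lay in those of Postn and Loxl1 (2 genes, beside 12.2%). Dcn and Loxl1 had a peak within 1 kb of the gene start in each control tumor and in no test tumor. These are 2 of the 6 members with a peak there in any tumor, beside 0.933% of 12546 genes, and 0 of the 6 had the reverse, beside 0.526%.

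**Figure D2:**
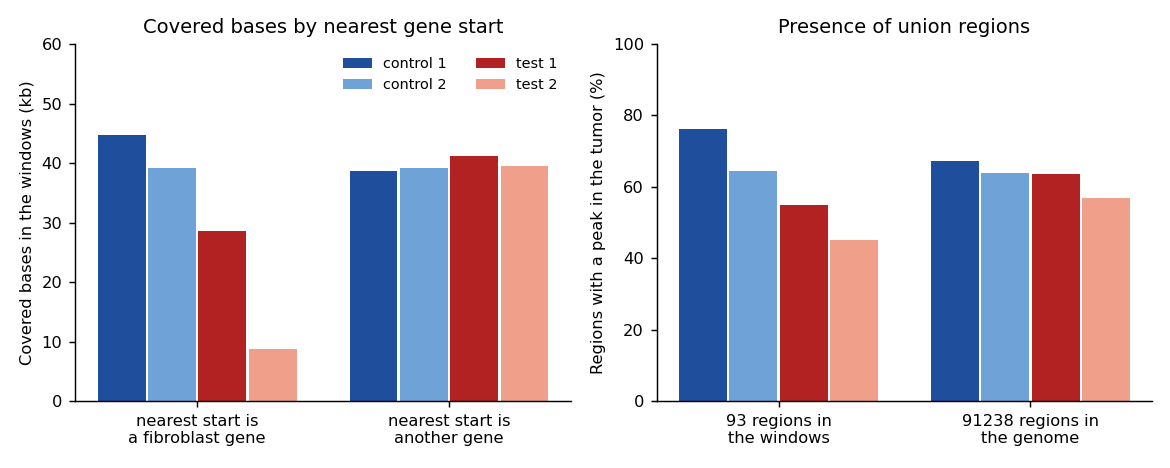
Left, kb of the fibroblast gene windows covered by peaks whose nearest gene start was a fibroblast gene or another gene, 1 bar per tumor. Right, percent of joined regions with a peak in each tumor, for the windows and for the genome. The bars nearest to fibroblast genes go from 44.7 kb in control 1 to 8.77 kb in test 2, while those nearest to other genes stay between 38.7 and 41.2 kb.

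Among the matrix genes of the 10, Sparc (chr11:55394500-55423183, minus strand) had the highest window coverage in the control tumors. It encodes osteonectin, a collagen-binding glycoprotein secreted by fibroblasts, endothelial cells and other cells. Peaks covered 15.1% of its window in control 1 and 16.4% in control 2, against 12.3% in test 1 and 8.79% in test 2. The groups did not overlap, and the difference was -5.19 percentage points with an SD of 2.14 over the 4 pairings. The difference was -3.45 points without test 2. In the gene body the shares were 25.2%, 27.5%, 14.6% and 4.91%, a wider gap than in the window. Both upstream neighbours, Atox1 and G3bp1, had their nearby regions in all 4 tumors but for 1 of 6, which was missing from control 1.

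The annotated start of Sparc, that of its most upstream transcript, had no peak within 1 kb in any tumor. Acetylation stood instead over or next to the starts of other transcripts, between 55419898 and 55420325, in the region chr11:55417268-55420550 that all 4 tumors shared. It covered 3002 bp in control 1 and 3233 bp in control 2, against 2443 bp in test 1 and 1409 bp in test 2. The peaks reached from inside the gene to base 55420515 in control 1 and 55420550 in control 2, against 55420382 in test 1 and 55419696 in test 2. The transcript starts at 55420080, 55420290 and 55420325 therefore lay inside a peak in both controls and test 1, and outside it in test 2. Those at 55419898 and 55419900 lay inside a peak in both controls and in neither test tumor. Of 26 regions in the Sparc window 5 were control-only, 4 of them within the gene and 1 upstream of it. The widest was an intronic region of 1293 bp (chr11:55415781-55417073), and 2.90% of all control-only regions were as wide. It was covered over 379 bp in control 1 and 1293 bp in control 2. In the same introns, chr11:55412500-55412982 was covered over 239 bp in control 1 and 316 bp in control 2. The middle 300 bases of the widest region are 86.3% annotated repeat, so the middle of the second, which is 12% repeat, is shown as the example of Sparc sequence acetylated in control tumors alone (mm10, plus strand, chr11:55412591-55412890).
Sparc intronic control-only region: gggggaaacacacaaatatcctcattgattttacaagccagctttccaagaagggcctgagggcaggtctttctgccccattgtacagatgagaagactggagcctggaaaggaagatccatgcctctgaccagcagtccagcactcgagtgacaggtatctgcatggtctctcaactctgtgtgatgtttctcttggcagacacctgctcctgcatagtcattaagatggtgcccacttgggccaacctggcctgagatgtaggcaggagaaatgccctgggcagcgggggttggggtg

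Dcn (chr10:97479609-97518143, plus strand) encodes decorin, a small leucine-rich proteoglycan that binds collagen fibrils and is made by most connective tissue fibroblasts. Its window had 2 peaks in control 1, 5 in control 2 and 0 in both test tumors. Coverage was 0.601% in control 1, 1.63% in control 2 and 0 in test 1 and test 2, a difference of -1.11 points. No peak in the Dcn window was as wide as 1 kb, so with peaks of at least that width alone the difference was 0. Over all peaks it was -1.63 points without control 1 and -0.601 points without control 2. One control-only region held the gene start (chr10:97479441-97480730, 1290 bp, covered over 525 bp in control 1 and 945 bp in control 2). The other lay at -9.14 kb from the start (chr10:97470260-97470688) and was covered over 307 bp in control 1 and 242 bp in control 2. Of all control-only regions 2.99% were as wide as the first and 45.9% as wide as the second. The middle of the upstream region is shown since it is the only region of the Dcn window away from the gene with a peak in both control tumors (mm10, plus strand, chr10:97470324-97470623). Capitals mark TATAAA and its reverse complement, which overlap each other within each capital run.
Dcn upstream control-only region: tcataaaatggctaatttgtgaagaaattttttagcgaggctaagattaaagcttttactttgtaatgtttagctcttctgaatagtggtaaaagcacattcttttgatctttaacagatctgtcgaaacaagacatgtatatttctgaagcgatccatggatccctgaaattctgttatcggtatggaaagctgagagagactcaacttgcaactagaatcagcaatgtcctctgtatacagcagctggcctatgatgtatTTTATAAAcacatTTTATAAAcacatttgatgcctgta

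Lum (chr10:97565128-97572703, plus strand), the gene of the related proteoglycan lumican, lies beyond the 3′ end of Dcn. Its window held 0 peaks in each of the 4 tumors. Beyond the Dcn start region, the next peak toward and past Lum was 713 kb from the end of Dcn. No acetylation was detectable at Lum in these lists, which does not show that the gene was silent in every cell.

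Postn (chr3:54361109-54391037, plus strand) encodes periostin, a secreted matrix protein abundant in the stroma of wounds and tumors. Coverage of its window was 8.16% in control 1 and 1.53% in control 2, against 4.44% in test 1 and 3.06% in test 2. Control 1 was the highest and control 2 the lowest, so the 2 control tumors lay on either side of both test tumors. The difference of -1.10 points was smaller than the SD of 3.91 points over the pairings, and it was 2.22 points without control 1 and -4.41 points without control 2. All 12 regions of the window had Postn as the nearest gene start, of which 3 were in all tumors, 4 were within or across the gene and 1 was test-only. That region (chr3:54399456-54399740, 285 bp, past the 3′ end) was covered over 285 bp in test 1 and 161 bp in test 2.

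Of the peaks at Postn, those at the gene start were found in 1 tumor of each group. The region chr3:54360658-54362885 was covered over 1987 bp in control 1 and 1448 bp in test 1, and had no peak in control 2 or test 2. RefSeq lists 2 starts for the gene, and the 250 bases before each are shown because the tumors acetylated them differently. The bases before the upstream start (54359267) were covered over 250 bp in control 1 and 0 in control 2, against 148 bp in test 1 and 27 bp in test 2. Those before the downstream start (54361107) were covered over 250 bp in control 1 and 0 in the other 3 tumors. Control 1 was thus the only tumor with both stretches in peaks. The sequences are from the RefSeq promoters of GRCm38.p6, plus strand, chr3:54359017-54359266 and chr3:54360857-54361106, and capitals in the second mark a TATAAA match.
Postn upstream start: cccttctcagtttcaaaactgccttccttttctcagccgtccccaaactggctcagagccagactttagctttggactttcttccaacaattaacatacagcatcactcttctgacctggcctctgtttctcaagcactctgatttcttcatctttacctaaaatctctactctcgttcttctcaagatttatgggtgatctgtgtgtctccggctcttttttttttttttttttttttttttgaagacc
Postn downstream start: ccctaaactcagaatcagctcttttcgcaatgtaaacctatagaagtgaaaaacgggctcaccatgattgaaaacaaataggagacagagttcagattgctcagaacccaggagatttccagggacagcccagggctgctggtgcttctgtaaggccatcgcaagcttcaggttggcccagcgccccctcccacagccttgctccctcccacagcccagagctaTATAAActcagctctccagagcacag

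Loxl1 (chr9:58287738-58313186, minus strand) encodes a lysyl oxidase that cross-links elastin and collagen. Its window was covered over 11% in control 1 and 12.9% in control 2, against 10.5% in test 1 and 12.3% in test 2, with a difference of -0.504 points that was 0.460 without control 2 and 0.402 without test 1. The groups overlapped. Of its 15 regions 11 were nearest to Pml or Stoml1, and the 5 regions present in all tumors were all among these. The 4 regions nearest to Loxl1 itself had another pattern. They covered 1.24% of the window in control 1 and 1.95% in control 2, against 0.366% in test 1 and 0 in test 2. A control-only region held the gene start (chr9:58312724-58313287), covered over 271 bp in control 1 and 564 bp in control 2. A region upstream of the start (chr9:58314838-58315964) was present in control 1, control 2 and test 1 over 907, 1127 and 459 bp, and absent from test 2. The widest control-only region of the window lay 29.6 kb downstream of the start, past the 3′ end of the gene (chr9:58283189-58283949), and was covered over 162 bp in control 1 and 761 bp in control 2. Its middle is shown as the Loxl1 region outside the gene that only control tumors acetylated (mm10, plus strand, chr9:58283419-58283718), with the reverse complement of TATAAA in capitals.
Loxl1 downstream control-only region: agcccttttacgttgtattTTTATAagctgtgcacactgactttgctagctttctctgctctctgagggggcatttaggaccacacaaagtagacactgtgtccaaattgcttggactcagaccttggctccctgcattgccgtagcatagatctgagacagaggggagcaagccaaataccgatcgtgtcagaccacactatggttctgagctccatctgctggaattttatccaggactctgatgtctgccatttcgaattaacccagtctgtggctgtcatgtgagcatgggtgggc

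The test-only region in the Loxl1 window was the region nearest to the window limit. It lay 49.7 kb from the gene (chr9:58237673-58238064, 392 bp), next to Pml. Just outside the limit of 50 kb were a 200-bp region at 51.1 kb from Postn, present in control 1 alone, and a 543-bp region at 52.0 kb from Pdgfrb, present in all tumors.

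Of the 2 platelet-derived growth factor receptors, Pdgfra (chr5:75152292-75198215, plus strand) marks most tissue fibroblasts. Its window was covered over 1.75% in control 1 and 1.5% in control 2, against 1.65% in test 1 and 0.445% in test 2. Test 1 lay between the control tumors, and test 2 was below all 3. The difference of -0.576 points was 0.0274 points without test 2 and -1.18 points without test 1. No other protein-coding gene lies in this window, and all 3 regions stood within the gene in the stretch downstream of its start. The region chr5:75153559-75155273 was covered over 1672 bp in control 1 and 1155 bp in control 2, against 1225 bp in test 1 and 408 bp in test 2. Its neighbour chr5:75155544-75156570 was covered over 875, 784, 826 and 242 bp in the same order. Both were thus narrowest in test 2. The 250 bases before the RefSeq start held no covered base in any tumor. Other annotated starts of the gene, at 75155076 and 75155899, lay inside peaks in control 1, control 2 and test 1, and outside them in test 2. Each of these starts had a peak within 1 kb in every tumor.

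Pdgfrb (chr18:61045150-61085061, plus strand), the receptor found on pericytes as well as fibroblasts, was lower in both test tumors by window coverage. The values were 2.94% in control 1 and 2.71% in control 2, against 2.47% in test 1 and 2.01% in test 2, a difference of -0.588 points, or -0.357 without test 2. Only 2 of its 6 regions were nearest to Pdgfrb. Both were found in control 2 alone, over 566 bp next to the start and 179 bp in an intron. The other 4 lay past the 3′ end and were nearest to Csf1r, the macrophage colony-stimulating factor receptor gene that adjoins Pdgfrb. The 3 of them shared by all tumors covered 3962 bp in control 1 and 3050 bp in control 2, against 3456 bp in test 1 and 2810 bp in test 2, so that control 2 lay below test 1 there. By its own peaks Pdgfrb had coverage of 0.532% in control 2 and 0 in the other 3 tumors.

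Fap (chr2:62500943-62574075, minus strand) encodes fibroblast activation protein, a cell-surface serine protease of reactive stroma. It was the member with more coverage in both test tumors, at 2.23% in control 1 and 1.15% in control 2, against 2.59% in test 1 and 2.24% in test 2. Control 1 and test 2 were nearly level, 3862 bp against 3880 bp. The difference of 0.725 points was 0.186 points without control 2 and 1.26 points without control 1. In the gene body alone the groups overlapped (2.66%, 0.278%, 3.06% and 1.46%). None of its 7 annotated starts had a peak within 1 kb in any tumor. Of the 7 regions 6 were nearest to Gcg, the glucagon gene, although 4 of those 6 stood within Fap. The region nearest to Fap's start, in an intron at 42.7 kb from it (chr2:62530798-62531881), was covered over 708 bp in control 1 and 0 in control 2, against 776 bp in test 1 and 296 bp in test 2.

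Thy1 (chr9:44043384-44048579, plus strand) encodes CD90, a surface glycoprotein of fibroblasts and of mouse T cells. Its window was covered over 8.53% in control 1 and 7.25% in control 2, against 9.60% in test 1 and 7.39% in test 2. The groups overlapped, and the difference of 0.604 points was -0.0375 without control 2 and -0.502 without test 1. All 5 regions were present in all 4 tumors and lay 24.0 to 45.4 kb downstream of the Thy1 start, nearest to Usp2 or Mfrp. The gene itself had 0 covered bases in every tumor and no peak within 1 kb of any of its 6 starts. The window coverage of Thy1 was thus wholly in peaks nearest to the starts of other genes.

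Tbx15 (chr3:99240381-99354259, plus strand) encodes a T-box transcription factor of mesenchymal cells. Coverage of its window was 9.06% in control 1 and 9.95% in control 2, against 6.83% in test 1 and 1.14% in test 2. The 4 tumors lay at 3 levels, with both control tumors together, test 1 below them and test 2 near 0. The difference was -5.52 points with an SD of 3.32 over the pairings, and it was -2.67 points without test 2 and -8.36 points without test 1. All 15 regions of the window were nearest to Tbx15. The gene body was covered over 13.5% in control 1 and 16.0% in control 2, against 10.2% in test 1 and 0 in test 2.

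Tbx15 held the widest region of any member, chr3:99244442-99258667 (14226 bp), and 109 of the genome's 91238 regions (0.119%) were as wide. It was covered over 11661 bp by 3 peaks in control 1, 14204 bp by 1 peak in control 2 and 9767 bp by 5 peaks in test 1, and it had 0 peaks in test 2. The start region chr3:99239972-99241920 was covered over 1710 bp in control 1, 1949 bp in control 2 and 1449 bp in test 1, and likewise had no peak in test 2. Of the whole window test 2 had 2 peaks, both beyond the 3′ end. One of them, in chr3:99400765-99403490, was shared by all tumors with 2405, 2341, 2726 and 2283 bp. Of the 10 regions in the gene, test 2 had a peak in none, and only 1 region was control-only. That intronic region (chr3:99325277-99325793) was covered over 451 bp in control 1 and 401 bp in control 2. Its middle is shown because no other region of the Tbx15 window was control-only (mm10, plus strand, chr3:99325385-99325684).
Tbx15 intronic control-only region: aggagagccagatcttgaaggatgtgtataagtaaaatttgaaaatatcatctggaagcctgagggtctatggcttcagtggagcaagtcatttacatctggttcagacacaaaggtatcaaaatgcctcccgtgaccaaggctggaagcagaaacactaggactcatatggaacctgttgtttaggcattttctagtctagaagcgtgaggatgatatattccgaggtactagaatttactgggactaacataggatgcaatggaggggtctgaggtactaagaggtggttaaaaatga

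**Figure D3:**
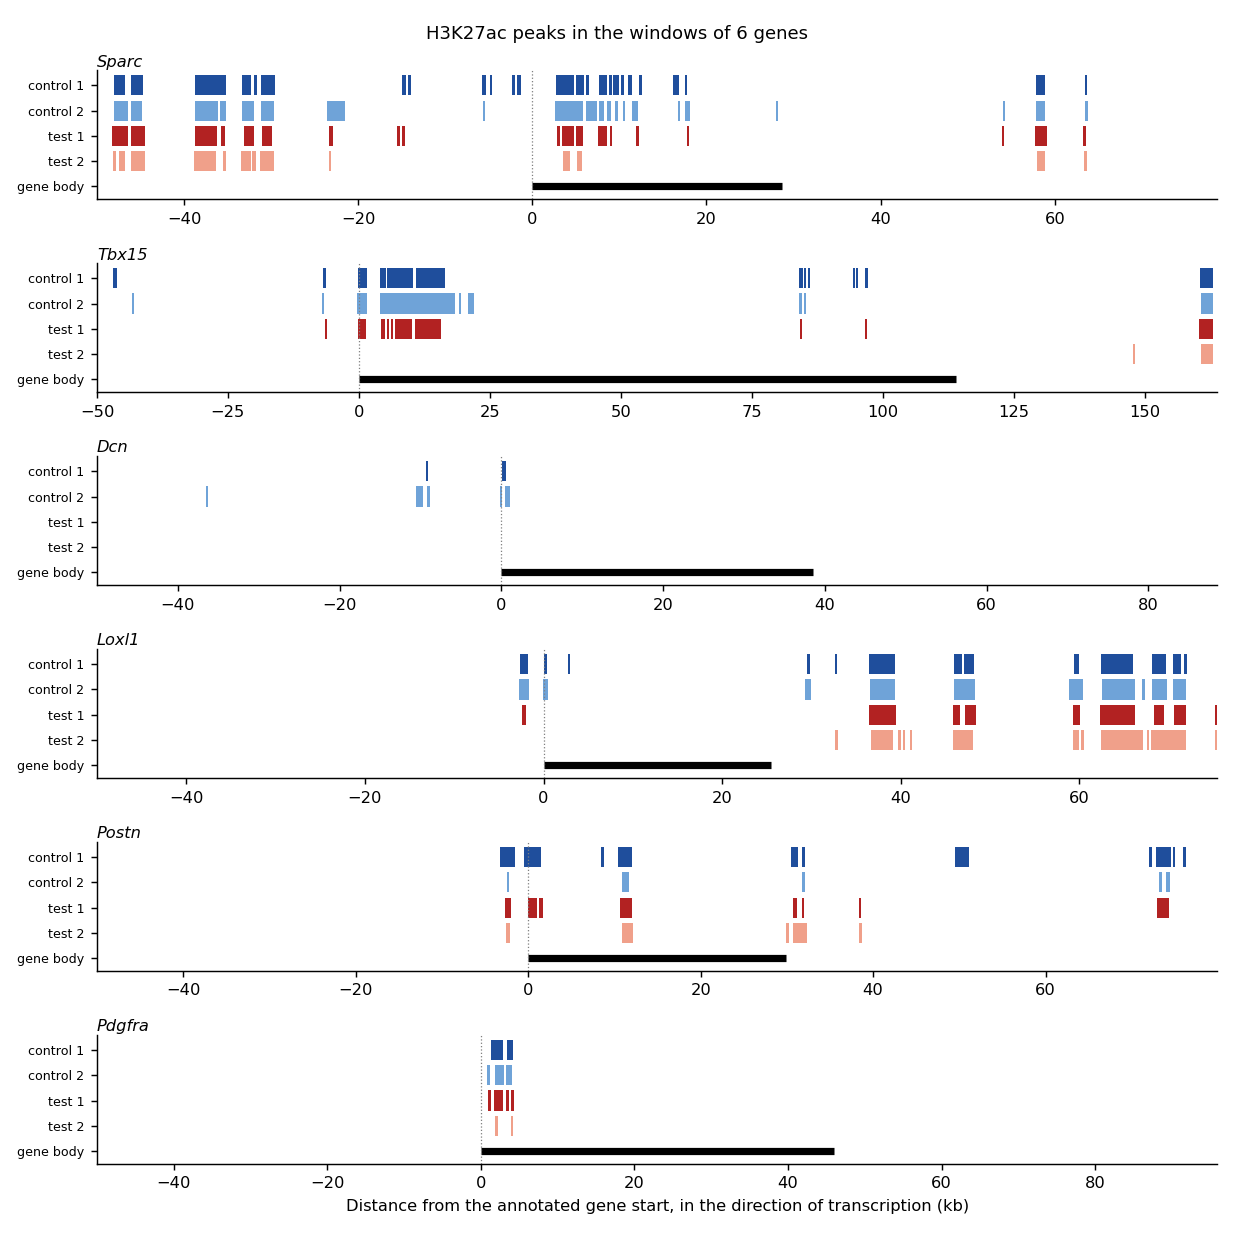
H3K27ac peaks of the 4 tumors in the windows of 6 fibroblast genes, against distance from the annotated gene start in the direction of transcription (kb). Each box is a peak, with the narrowest drawn slightly widened, and the black bar is the gene body. Test 2 has no peak over Tbx15, neither test tumor has a peak at Dcn, and the wide peaks far downstream of Loxl1 are present in all 4 tumors.

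Set against all 18693 covered genes, 0.674% had a window difference as low as or lower than that of Tbx15, and 0.829% as low as that of Sparc. These are the only members near the end of the distribution. For Dcn the share was 14.6%, for Postn 14.7%, for Pdgfrb 23.2%, for Pdgfra 23.5% and for Loxl1 25.2%. The window differences of Thy1 and Fap were above those of 79.4% and 82.8% of genes. By peaks nearest to the gene's own start the shares were 0.213% for Tbx15, 0.413% for Sparc, 5.21% for Loxl1, 7.40% for Dcn, 7.50% for Postn, 14.4% for Pdgfra, 24.4% for Pdgfrb and 62.2% for Fap. These shares are of the 15499 genes with own peaks. These ranks describe members that were picked with the same values in view.

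**Figure D4:**
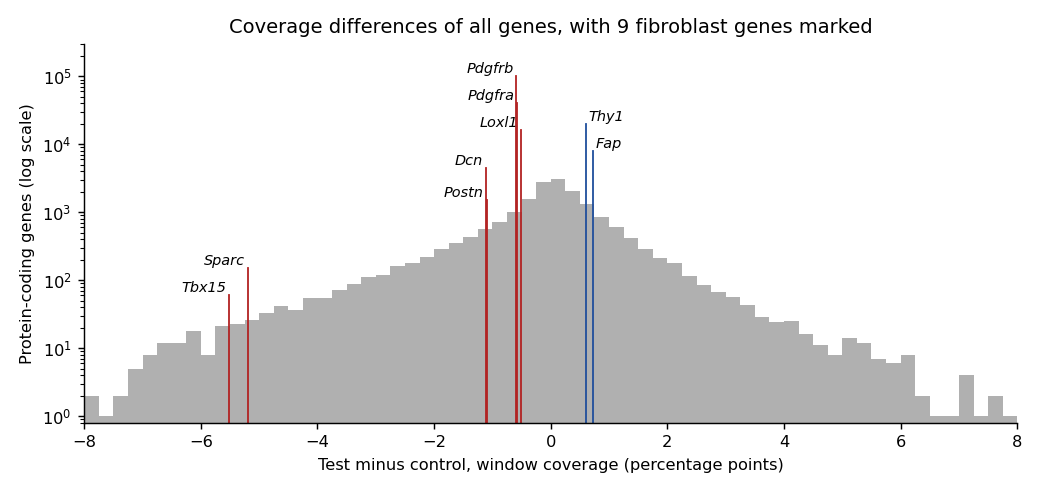
Histogram of the test minus control difference in window coverage (percentage points, x axis) over 18693 protein-coding genes, with the number of genes on a log scale (y axis), a few genes lying beyond the ends of the x axis. Vertical lines mark the 9 fibroblast genes with coverage. Tbx15 (-5.52) and Sparc (-5.19) lie in the lower tail, Dcn (-1.11) is the next lowest and Fap (0.725) is the highest.

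The sequences of the regions were compared with those of all regions over their middle 300 bases. Median GC content was 47% for the 93 regions of the windows and 47.7% for all regions, and observed over expected CpG was 0.200 and 0.222. The window regions had GGGCGG, the core of the GC box bound by Sp1 family factors at many CpG-rich promoters, in 4.30%, against 10.7% of all regions and 5.82% of control-only regions. CCAAT, the box bound by NF-Y, was present in 22.6% against 31.0%. TGANTCA, the element bound by AP-1, was present in 6.45% against 10.1%, and CATTCC, the element bound by TEAD factors, in 14% against 16.5%. TATAAA was found in 21.5% against 14.7%. Motifs were searched on both strands as these letters only, and such matches are not binding sites. Of the sequences printed, the Dcn region held 4 TATAAA matches counted over both strands and the Loxl1 region 1. The printed Sparc and Tbx15 regions held none of the 5 motifs. Of RefSeq promoters 12.4% held TATAAA, as did the downstream one of Postn. RefSeq promoters were matched for Sparc, Pdgfra and Postn (3 of 10 genes), and not for Dcn, Lum, Pdgfrb, Fap, Thy1, Loxl1 and Tbx15.

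Other fibroblast genes were taken as lists. Of 36 fibroblast matrix genes, which include the collagens Col1a1 and Col3a1 and fibronectin (Fn1), 9 had less window coverage in both test tumors and 0 had more, beside 13.0% and 17.3% of all genes. The list's gene bodies were on average covered over 3.53% in control 1 and 3.78% in control 2, and over 4.55% in test 1 and 2% in test 2. Test 1 was thus the highest tumor and test 2 the lowest. Fmod (fibromodulin), Ctsk (cathepsin K) and Col6a3 had the largest separated differences. Col6a3, a chain of type VI collagen, had 0.821%, 2.02%, 0.0932% and 0 of its window in peaks in control 1, control 2, test 1 and test 2. Fmod's own body held 0 covered bases in every tumor, and its window difference of -2.58 points came from around it.

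Of 15 fibroblast transcription factors 12 had coverage, 2 were lower in both test tumors and 0 were higher, beside 13.0% and 17.3% of all genes. The share of lower genes was thus near that of all genes. Prrx1, a homeobox factor of limb and connective tissue mesenchyme, had 10.1% of its window in peaks in control 1 and 10.6% in control 2, against 3.95% in test 1 and 2.12% in test 2. Its difference of -7.32 points was larger in size than that of any of the 10 fibroblast genes. Zeb2, a zinc finger repressor used by mesenchymal and myeloid cells, had 6.86%, 5.29%, 4.57% and 3.27% in the same order. Mean body coverage of the list was 4.74%, 5.05%, 2.87% and 1.68%. Both test tumors were below both control tumors by this mean, as they were for the 10 genes themselves (6.13%, 5.68%, 4.24% and 1.24%).

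Inflammatory fibroblast genes were lower in both test tumors in 5 of 15 cases and higher in 2, and myofibroblast genes in 2 and 0 of 10, beside 13.0% and 17.3% of all genes. Lif, a cytokine gene, had 23.1%, 22.1%, 21% and 16.5% of its window in peaks in control 1, control 2, test 1 and test 2, while its gene body was covered over 54.2% and 53.2% in control and 47.3% and 54.7% in test tumors, so test 2 was the highest there. The collagen gene Col14a1 was among those higher, at 2.55%, 2.01%, 3.18% and 3.01%. Acta2 (smooth muscle actin) had 13.0% of its window in peaks in control 1 and 12.3% in control 2, against 11.1% in test 1 and 6.38% in test 2, while in its gene body (8.88% and 4.66% against 7.70% and 0) the groups overlapped. Tpm2, a tropomyosin, had 20.5%, 21.2%, 18.4% and 14%. Both genes are shared with smooth muscle and myoepithelial cells.

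Endothelial and macrophage markers were counted in the same way, beside 13.0% lower and 17.3% higher of all genes. Of 14 endothelial genes 7 were lower in both test tumors and 0 higher, and on average 4.76% (control 1), 4.93% (control 2), 2.92% (test 1) and 1.87% (test 2) of their gene bodies lay in peaks. Eng, Egfl7 and Esam had the largest separated window differences, all lower in the test tumors. The gene body of Eng was covered over 11.4% in control 1 and 18.3% in control 2, against 6.34% in test 1 and 2.21% in test 2. Of the 14 gene bodies, 2 were at 0 in all tumors, those of the endothelial receptors Tek and Tie1. Of 16 macrophage genes 7 were lower and 1 higher, with means of 39.2% and 34.8% in control and 33.5% and 23.0% in test tumors. C1qa, C1qb and C1qc, adjacent genes of complement C1q, had nearly the same window and are 3 of these 7 genes, so they do not count as separate, and the window of C1qa was covered over 9.60%, 6.69%, 4.51% and 2.10% in the 4 tumors. The gene body of Adgre1 (F4/80), alone of the 16, was at 0 in all tumors. The part of endothelial and macrophage chromatin in the fibroblast gene result was not tested.

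The following counts stand beside 13.0% of all genes lower and 17.3% higher in window coverage. Pericyte genes were lower in both test tumors in 1 of 11 cases (Cspg4) and higher in 1 (Notch3), with mean body coverage of 8.29% and 7.67% in control and 6.93% and 4.71% in test tumors, and the body of Des at 0 in all. Myoepithelial genes were lower in 3 of 9 cases, Trp63, Acta2 and Oxtr, and higher in 0. T cell genes were lower in 3 and higher in 5 of 13, with mean body coverage of at most 1.53% in any tumor. In this list 8 gene bodies, among them those of Cd3e, Cd3g and Cd4, had 0 covered bases in all tumors. Bcl11b was among those lower, and its gene body was covered over 9.23%, 10.8%, 5.89% and 0.186% in control 1, control 2, test 1 and test 2. Cd3e and Cd3d had the largest separated rises in window coverage. Adipocyte genes were lower in 2 and higher in 1 of 11, with the gene body of Adipoq at 0 in all tumors. Luminal epithelial genes were lower in 0 and higher in 3 of 15, with mean body coverage of 54.0% and 47.7% in control and 53.1% and 50.3% in test tumors. The epithelial genes Esrp1, Ehf and Epcam were those higher in both test tumors. Neuronal genes were lower in 1 and higher in 1 of 9.

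**Figure D5:**
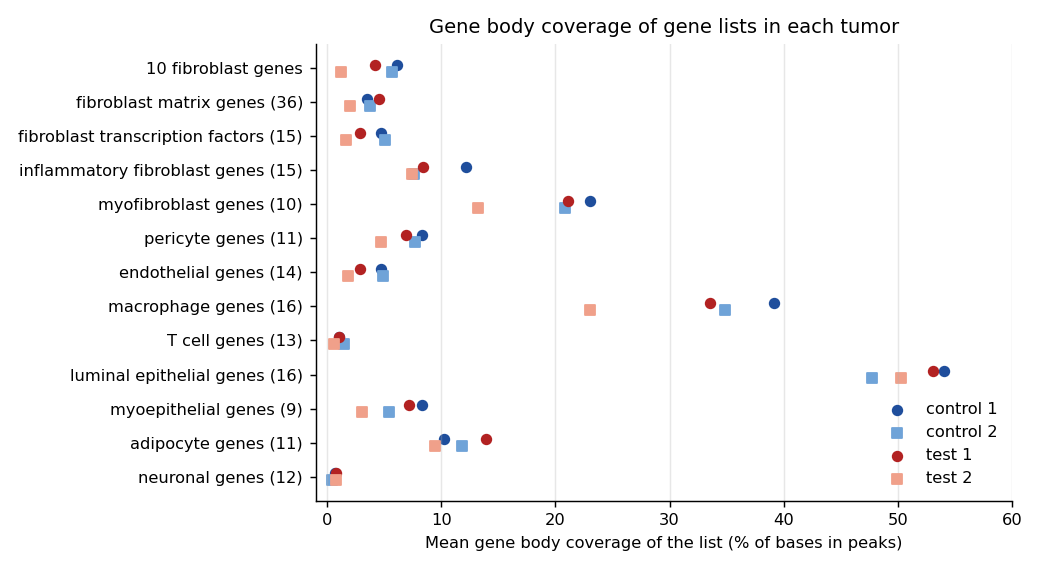
Mean percent of gene body bases in H3K27ac peaks (x axis) for the 10 fibroblast genes and 12 comparison lists, with the number of genes found in parentheses, 1 point per tumor. Test 2 is the lowest tumor for the 10 fibroblast genes and for every list except the luminal epithelial and neuronal lists, and the luminal epithelial list has 47.7% to 54.0% in every tumor.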

How the data were processed

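H3K27ac ChIP-seq peak lists of 4 tumors were used. The authors aligned reads to mm10 with BWA (also named in the submitters' processing notes) and called peaks per tumor with MACS2 against matched input. The deposited lists hold interval starts and ends in base pairs, with no score, after an unspecified cleaning and joining of peaks. Read depth is unknown. The 4 input libraries were not analysed here. Groups came from the genotype labels, and the numbers 1 and 2 only name tumors.

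Regions were overlapping peaks of all tumors joined, present in a tumor with at least 1 bp of overlap. The TSS was the 5′ end of the GENCODE M21 gene. Results are descriptions with no test, and differences are test minus control beside the SD over the 4 pairings. Interval arithmetic was tested on simulated data (Python 3.11.15, numpy 2.4.6, matplotlib 3.10.9).

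The 10 genes and 12 gene lists were chosen with earlier results of these data known and give no independent support. All 10 genes are named, with up to 3 genes per list of largest separated window difference, the widest control-only and test-only region per gene and those at promoters. Other regions and neighbours, and some list genes with no covered base in the gene body, were named after their values were seen. Of the T cell list 13 of 14 symbols matched. Sequences are of the reference strain, while the mice were Balb/c. Flank, peak width, joining, equal peak number, own peaks, scaling, promoter width, overlap and leaving out each tumor were varied.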

Additional observations from a re-analysis of the deposited data

How the results depend on the processing

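The ratio of covered bases in the fibroblast gene windows was below 1 under every alternative tried. It was 0.443 in gene bodies alone, 0.472 with 10 kb either side and 0.446 by own peaks, and 0.597 to 0.863 when each tumor was left out. The ratio of peak numbers was 0.621, 0.625 and 0.523 under the same 3 settings, and 0.667 to 0.933 without single tumors. Genes lower in both test tumors were 2 among peaks at least 1 kb wide (9.90% of all genes), where Dcn had no peak in any tumor, and 5 to 6 without single tumors, a looser rule by construction that 20.5% to 46.6% of all genes met. Without test 1 the 5 of 9 genes were near the 46.6% of all genes. Genes higher in both were 0 in gene bodies, with 10 kb or 100 kb either side, with peaks joined within 1 kb and by own peaks (15.5% to 18.6% of all genes), and 1 to 3 without single tumors (29.4% to 48.5% of all genes). Control-only regions were 0 among peaks at least 1 kb wide, 5 with peaks joined (8.47% of window regions beside 2.88% of the genome's), 5 at 50% overlap and 10 to 26 without single tumors. Test-only regions were 0 in gene bodies and among wide peaks, 1 with 10 kb either side and by own peaks, and 3 to 9 without single tumors (3.02% to 10.3% of the genome's regions). Genes with a promoter peak in control tumors alone were 0 among wide peaks (0.996% of all genes with a promoter peak), 1 with promoters of 2.5 kb either side (0.954%) and 2 to 3 without single tumors (1.27% to 3.92%). Taking all annotated starts, an alternative chosen after seeing the data, gave 2, and 0 for the reverse. With equal peak numbers in each tumor the ratio of covered bases was 0.741, and 4 genes were lower (11.7% of all genes) and 1 higher (18.9%).

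No paired analysis was made, since the tumors came from separate mice and no label pairs a control with a test tumor. Without read counts or peak heights, a region without a peak cannot be told from one just below the caller's threshold, and lists of 2 tumors per group cannot show how often such differences arise between tumors of 1 genotype.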
